A study of Mus musculus with 10 samples.

Results

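The xenobiotic cytochromes P450 are the members of P450 families 1 to 3, and their transcripts were followed in regenerating mouse liver with and without Ifrd1. They were chosen by gene symbol, from families 1, 2 and 3 with a subfamily letter and a number, without Cyp2c70. By this rule, which uses no expression value, 48 of the 23056 genes in the table qualified. The choice was made with earlier results of these data known. All 48 had counts, and 35 of them reached at least 1 CPM (a count scaled to library size) in at least 4 libraries and are described by subfamily. The libraries came from 4 livers of mice with the genotype IFRD1-KO (KO, knockouts of Ifrd1) and 6 livers of wild-type mice (WT), all collected 12 hours after surgical removal of the left lateral and median lobes (partial hepatectomy). The study asked how loss of Ifrd1, which encodes a transcriptional co-regulator, alters the response of the liver to this operation. The sources used here give neither strain, sex nor age, do not say which cells lost Ifrd1 or how, and name no animal for a library, so a p-value reflects only how these libraries vary. No unoperated liver was analysed here, and the values compare genotypes at a single time after surgery.

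Cytochromes P450 are heme-containing monooxygenases of the endoplasmic reticulum, where they take electrons from P450 oxidoreductase and insert oxygen into drugs, dietary chemicals, steroids and fatty acids. In the liver they are made by hepatocytes, most of them around the central vein. Receptors that act as transcription factors set their transcription. The aryl hydrocarbon receptor (AHR) acts on family 1. The constitutive androstane receptor (CAR) and the pregnane X receptor (PXR), both nuclear receptors, act on families 2 and 3. Several mouse members also differ between the sexes, under the control of growth hormone.

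Library totals were 12675838 to 17098012 counts in KO and 12307446 to 14340623 counts in WT. As a check of the labels, Ifrd1 had 13.02, 22.6, 20.8 and 21.6 CPM in the 4 KO livers, against 40.2, 54.9 and 81.7 CPM (lowest, median and highest) in the 6 WT livers, and the groups did not overlap. The log2 fold change amounted to -1.59 (SE 0.23, adjusted p = 0.0258, edgeR quasi-likelihood F test, Benjamini-Hochberg), a call lost when any 1 KO library, WT replicate 1 or WT replicate 5 was left out. Throughout, CPM are counts scaled to a common library size after TMM adjustment, and a fold change is KO over WT. WT replicate 4 stood apart from the other WT livers: its level was closer to the average of the KO livers than to that of the remaining WT livers for 69.9% of all genes tested and for 26 of the 35 members. Results that rest on it are given with and without it, and leaving out a WT library for its likeness to KO favours a difference. In bulk RNA, fewer hepatocytes and less RNA per hepatocyte cannot be told apart.

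Promoters of the members on which the results turn are shown first, each as 250 bases before and 50 bases after the RefSeq transcription start on GRCm38.p6, the assembly of the mm10 build named in the submitters' processing notes. Of the 35 described members, 30 had such an entry. Capitals mark matches, on either strand, to a short set of motifs: the nuclear receptor half-site AGGTCA and its variant spelled AGTTCA, the HNF1 half-site GTTAAT, the C/EBP motif TTGCNNAA, the D-box TTANGTAA, the AHR core GCGTG and the TATA box TATAAA. No motif contains another. The first 3 genes are the inducible members with the highest WT levels in subfamilies 2B, 2A and 3A, and the last 2 are 2A neighbours with closely similar windows.
Cyp2b10 (chr7:25897408-25897707, plus strand): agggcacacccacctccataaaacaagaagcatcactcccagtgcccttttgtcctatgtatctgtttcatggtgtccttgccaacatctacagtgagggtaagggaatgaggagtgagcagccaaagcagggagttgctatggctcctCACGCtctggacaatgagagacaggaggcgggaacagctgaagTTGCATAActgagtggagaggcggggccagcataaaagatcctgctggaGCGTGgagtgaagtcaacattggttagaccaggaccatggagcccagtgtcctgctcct
Cyp2a5 (chr7:26835089-26835388, plus strand): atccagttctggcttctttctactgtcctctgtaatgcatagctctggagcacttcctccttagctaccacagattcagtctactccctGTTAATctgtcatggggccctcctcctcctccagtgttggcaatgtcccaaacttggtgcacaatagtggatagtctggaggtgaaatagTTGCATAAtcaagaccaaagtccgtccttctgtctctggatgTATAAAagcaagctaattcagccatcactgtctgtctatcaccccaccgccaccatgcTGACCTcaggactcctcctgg
Cyp3a11 (chr5:145879805-145880104, minus strand): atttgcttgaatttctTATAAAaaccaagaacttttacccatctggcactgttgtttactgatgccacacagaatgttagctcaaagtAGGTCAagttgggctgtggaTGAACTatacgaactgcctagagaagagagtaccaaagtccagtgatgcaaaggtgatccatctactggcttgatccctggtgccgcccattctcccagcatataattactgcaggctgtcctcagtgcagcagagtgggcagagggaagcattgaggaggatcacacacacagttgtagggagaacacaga
Cyp2a22 (chr7:26939337-26939636, minus strand): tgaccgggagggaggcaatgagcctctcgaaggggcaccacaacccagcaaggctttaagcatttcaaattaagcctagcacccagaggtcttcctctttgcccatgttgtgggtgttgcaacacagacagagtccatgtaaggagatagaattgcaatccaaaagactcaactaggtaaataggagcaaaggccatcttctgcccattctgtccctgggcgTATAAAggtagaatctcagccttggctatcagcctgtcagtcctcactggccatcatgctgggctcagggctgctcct
Cyp2a12 (chr7:27028840-27029139, plus strand): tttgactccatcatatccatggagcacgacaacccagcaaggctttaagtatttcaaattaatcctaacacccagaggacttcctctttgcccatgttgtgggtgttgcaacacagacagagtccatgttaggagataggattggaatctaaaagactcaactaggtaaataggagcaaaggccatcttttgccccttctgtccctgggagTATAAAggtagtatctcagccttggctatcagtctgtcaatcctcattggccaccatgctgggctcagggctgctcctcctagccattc

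The Cyp2b10 and Cyp2a5 windows held the same C/EBP match, at -58 and -71 from the start. This motif lay in 8 of the 30 member promoters and in 10.8% of the 27025 promoters of the same length. Cyp2b10 also held the AHR core at -101 and at -9, a motif of 5 of the 30 member promoters and 32.5% of all. The nuclear receptor half-site lay at -162 in Cyp3a11 and 30 bases after the start in Cyp2a5, and Cyp3a11 held the half-site variant at -142. The half-site was found in 9 of 30 member promoters against 16.0% of all, the variant in 4 against 14.0%, the HNF1 half-site in 5 against 7.20% and the D-box in 1 against 2.34%. A TATA box was found in 17 of 30 member promoters and in 14.2% of all promoters; its place was -29 in Cyp2a5, -28 in Cyp2a22, -39 in Cyp2a12 and -234 in Cyp3a11. These are matches of letters, and binding was not measured.

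The summed transcript level of the 48 members was even among the KO livers and uneven among the WT livers. It was 9248, 9449.8, 10074 and 9649.9 CPM in the KO livers, against 7696, 10688 and 16864 CPM in the WT livers. The KO livers averaged 9605 ± 353 CPM and the WT livers 11351 ± 3205 CPM (SD, n = 4 and n = 6), so the KO values lay inside the WT range. WT replicate 4 had the lowest sum and WT replicate 6 the highest. By raw counts, members took 0.952 to 0.980% of each KO library and 0.789 to 1.60% of each WT library.

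Subfamily 3A had the widest range. It summed to 1813, 2894, 2701 and 2339.9 CPM in KO, against 1623, 3559 and 8929.7 CPM in WT, where WT replicates 5 and 6 had 7202 and 8929.7 CPM. It was 19.6 to 30.6% of the member total in KO livers and 21.1 to 56.0% in WT livers. Without Cyp3a11, the remaining 47 members summed to 7749.7 ± 248 CPM in KO and 7728 ± 1356 CPM in WT. Subfamily 2D ran the other way, at 2455, 2589.8, 2882 and 2588 CPM in KO, against 1636, 1982 and 2384 CPM in WT. All 4 KO livers were above the highest WT liver in 2D, which was WT replicate 4. This sum includes the transcribed pseudogene Cyp2d13, which averaged 372 CPM in KO and 101 CPM in WT and had 474 CPM in WT replicate 4. The rank of WT replicate 4 and the width of the gap between the groups in 2D depend on this pseudogene. Subfamily 2C summed to 1159 ± 97.98 CPM in KO and 1241 ± 506 CPM in WT, and 2A to 598 ± 78.1 and 900.0 ± 312 CPM in KO and WT.

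**Figure D1:**
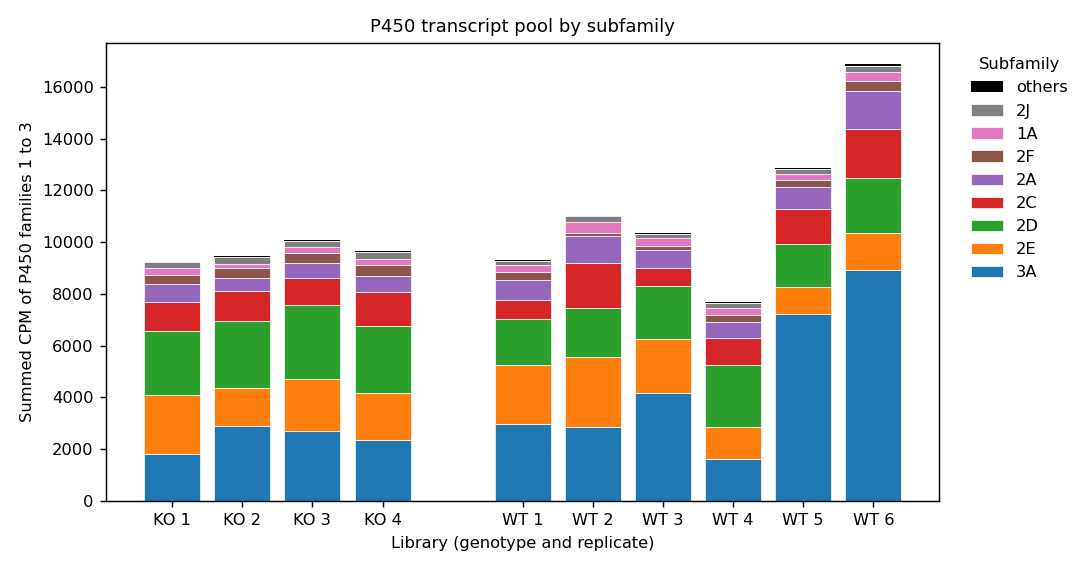
Summed CPM of P450 families 1 to 3 in each library (x axis: 4 KO livers, then 6 WT livers), stacked by subfamily. The KO bars are between 9248 and 10074 CPM, while the WT bars run between 7696 and 16864 CPM, with the widest 3A segments in WT replicates 5 and 6.

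For levels per kilobase, CPM were divided by the combined length of all exons annotated for a gene, over all its transcripts. That length was 5093 bases for Cyp3a11 and 2083 bases for Cyp3a25, so the order below depends on it. By this measure Cyp2e1 had the highest mean level, 879 CPM per kb in KO and 836 CPM per kb in WT. Not divided by length, Cyp3a11 averaged 1856 CPM in KO and 3623 CPM in WT, and Cyp2e1 1897 and 1804 CPM. Cyp3a11 followed in WT at 711 CPM per kb, with 364 CPM per kb in KO, about level there with Cyp2d9 (377 CPM per kb in KO, 268 in WT) and Cyp2d10 (339.6 in KO, 338 in WT). Next after Cyp3a11 in WT was Cyp3a25, at 407 CPM per kb, with 198 CPM per kb in KO. Cyp2d13 has no entry in the annotation that gave lengths and is not in this order.

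No member passed the edgeR test between genotypes when all libraries were used. Across all 13688 genes tested, the edgeR quasi-likelihood F test with Benjamini-Hochberg adjustment called 0.563% higher and 0.767% lower in KO at an adjusted p under 0.05. Of the 48 members 38 had enough counts to be tested, and 0 were called higher and 0 lower. The smallest adjusted p was 0.0535, for Cyp2b10 (edgeR quasi-likelihood F test, Benjamini-Hochberg). At an unadjusted p under 0.05 the same test gave 6 members higher and 6 lower in KO, against 11.6% and 14.4% of all genes. DESeq2 called 2 of 37 members higher (Cyp2d9 and Cyp2j5) and 4 lower (Cyp2a5, Cyp2b10, Cyp2c29 and Cyp2c55), against 3.66% and 6.6% of all genes, and gave no adjusted p for Cyp2d13. With limma-voom 0 members were called in either direction, against 1.69% higher and 0.636% lower of all genes.

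Without WT replicate 4, 3 of 37 members were called higher in KO (Cyp2a22, Cyp2d13 and Cyp2j5) and 5 lower (Cyp2a5, Cyp2b10, Cyp2c29, Cyp2c55 and Cyp3a11). In the same fit 10.5% of all genes were called higher and 10.9% lower, so the members' shares were near the background. Every KO liver was above every WT liver for 4 members, Cyp2c38, Cyp2d9, Cyp2j5 and Cyp2u1, against 3.61% of all genes. The opposite, every KO liver below every WT liver, held for 0 members, against 3.29% of all genes.

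Among the 35 described members, 22 had a log2 fold change above 0 and 13 below, with a median of 0.07, against a median of -0.02 over all genes tested, of which 48.4% were above 0. Their fold changes were larger in size, with a median absolute log2 fold change of 0.49, against 0.32 over all genes. They also varied more among WT livers: the median coefficient of variation of a member was 17.6% in KO and 38.6% in WT, against 16.9% and 29.4% in KO and WT over all genes. The ratio of the highest to the lowest liver was smaller among the 4 KO livers than among the 6 WT livers for 34 of the 35, against 86.9% of the 13514 tested genes above 0 in every library; a range over fewer livers tends to be narrower.

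**Figure D2:**
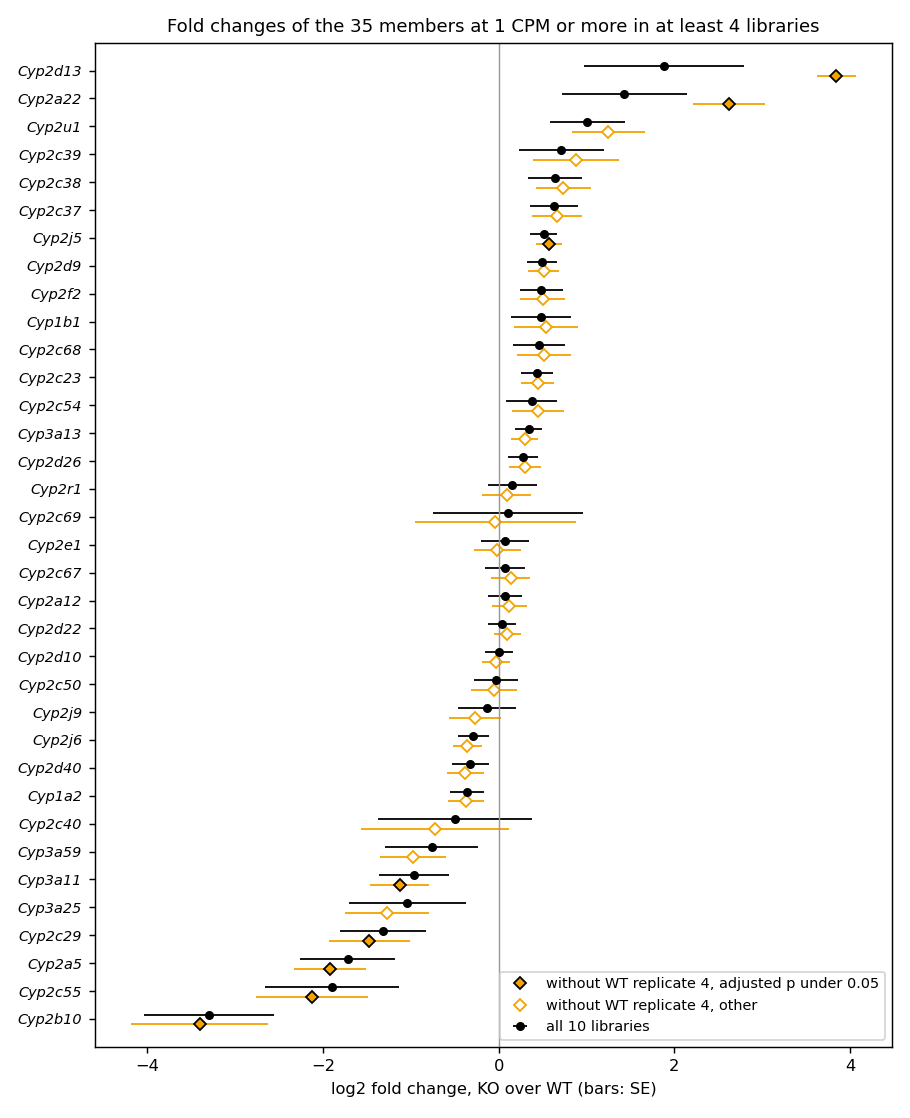
Log2 fold change (KO over WT, x axis) of the 35 described members (rows), as black points with SE bars for all 10 libraries and as diamonds without WT replicate 4, filled where the adjusted p was under 0.05. The extremes with all libraries are Cyp2b10 at -3.30 and Cyp2d13 at 1.89, and 8 members have a filled diamond.

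In subfamily 3A, the main drug-oxidizing subfamily, 3 of 4 members had a log2 fold change below 0. Cyp3a11, the main inducible 3A enzyme of mouse liver and a PXR target, had 1354, 2064, 2158 and 1847 CPM in the KO livers, against 1433, 2766 and 6891 CPM in the WT livers. WT replicate 4 was the lowest WT liver and lay inside the KO range, while WT replicates 5 and 6, at 5557 and 6891 CPM, were the highest. The fitted log2 change was -0.97 (SE 0.40, adjusted p = 0.153, edgeR quasi-likelihood F test, Benjamini-Hochberg). Without WT replicate 4 it was -1.13 (adjusted p = 0.0326, same test), which passed.

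Cyp3a25 had 278, 662, 378 and 331 CPM in KO, against 86.1, 622 and 1859 CPM in WT, with WT replicate 4 the lowest of all 10 livers. KO over WT, this gave a log2 fold change of -1.04 (SE 0.67, adjusted p = 0.344, edgeR quasi-likelihood F test, Benjamini-Hochberg). Cyp3a59, which shares 30.02% of its 50-base words with other genes, most of them with Cyp3a25, was likewise lowest in WT replicate 4 and stood at 15.95 ± 5.40 CPM in KO and 26.99 ± 19.5 CPM in WT. How the authors' counting divided reads between such copies is not given in the sources used here. Cyp3a13, which is listed here as inducible and is also expressed outside the liver, was the exception. It had 169, 143, 151 and 148 CPM in KO, against 99.1, 118 and 145 CPM in WT, and only KO replicate 2 lay below WT replicates 1 and 3, with a log2 fold change of 0.34 (SE 0.15, adjusted p = 0.181, edgeR quasi-likelihood F test, Benjamini-Hochberg).

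Subfamily 2B is the classical target of CAR, and its induction by phenobarbital is a standard readout of that receptor. Cyp2b10 (chr7:25897658-25926624), the CAR-inducible member whose promoter is shown above, had 1.10, 0.462, 1.08 and 1.99 CPM in the KO livers, against 1.74, 7.50 and 29.8 CPM in the WT livers. Every KO liver but KO replicate 4 lay below all WT livers. The log2 fold change, -3.30 (SE 0.74, adjusted p = 0.0535, edgeR quasi-likelihood F test, Benjamini-Hochberg), was the largest in size among the described members. It was -3.41 without WT replicate 4 (adjusted p = 0.0134, same test); WT replicate 4 itself had 6.81 CPM, well above KO. The other 2B genes are both female-biased in mice. Cyp2b9 had 1 count over the 4 KO livers and 225 counts over the 6 WT livers, nearly all in WT replicate 2 at 16.3 CPM, and was not tested. Cyp2b13 had 5 counts in all.

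In subfamily 2A, Cyp2a5 and Cyp2a22 lay on opposite sides of 0 and Cyp2a12 near 0. Cyp2a5, the coumarin hydroxylase of mouse liver, had 186, 77.1, 154 and 154 CPM in the KO livers, against 104, 411 and 933 CPM in the WT livers. Only WT replicate 4, at 104 CPM, lay inside the KO range; the other WT livers were at 225 CPM or more. Between genotypes this gave a log2 fold change of -1.72 (SE 0.54, adjusted p = 0.0926, edgeR quasi-likelihood F test, Benjamini-Hochberg). It was -1.92 without WT replicate 4 (adjusted p = 0.0087, same test). Cyp2a5 shares 37.03% of its 50-base words with other genes, chiefly its neighbour Cyp2a4, a steroid hydroxylase that is female-biased in mice. Cyp2a4 had 20 counts over the KO livers and 95 over the WT livers, with its highest level, 5.22 CPM, in WT replicate 2.

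Cyp2a12, a testosterone hydroxylase, had 487, 425, 402 and 475 CPM in KO, against 273, 451 and 533 CPM in WT, and the groups overlapped. The change on the log2 scale was 0.07 (SE 0.19, adjusted p = 0.852, edgeR quasi-likelihood F test, Benjamini-Hochberg). Its neighbour Cyp2a22 (chr7:26931631-26939413), chosen after its values were seen, had 6.34, 3.47, 9.30 and 12.6 CPM in KO, against 0.773, 1.39 and 11.02 CPM in WT. The highest WT value was WT replicate 4, and the other 5 WT livers had at most 2.12 CPM, below every KO liver. Its log2 fold change was 1.43 with all libraries (SE 0.71, adjusted p = 0.227, edgeR quasi-likelihood F test, Benjamini-Hochberg). Without WT replicate 4 it was 2.62 (adjusted p = 0.00168, same test). The promoters of the pair matched in 254 of 274 aligned columns (92.7%), and Cyp2a22 shares 20.2% of its transcript's 50-base words with other genes, mostly Cyp2a12.

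**Figure D3:**
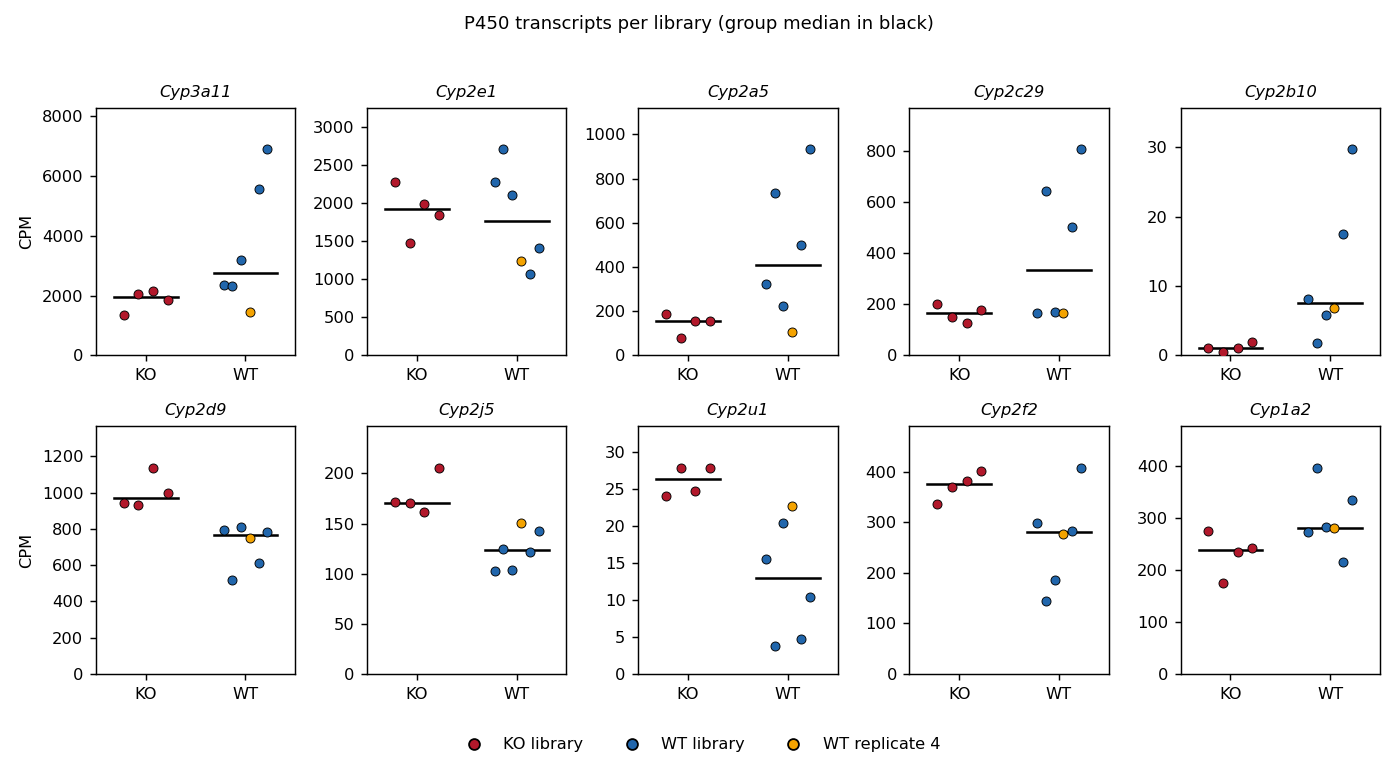
CPM per library (y axis) of 10 members, KO livers in red to the left of WT livers in blue, with WT replicate 4 in orange and the group median as a black line. Cyp2d9, Cyp2j5 and Cyp2u1 are higher in every KO liver than in every WT liver, and the highest Cyp3a11 value is 6891 CPM in WT replicate 6.

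Subfamily 2C, a cluster of arachidonate, steroid and drug oxidases on chromosome 19, had 12 described members, 8 with a log2 fold change above 0 and 4 below. Cyp2c29, an inducible pericentral member with the highest 2C level over all libraries, had 201, 149, 127 and 179 CPM in KO, against 164, 335 and 807 CPM in WT. WT replicates 2, 5 and 6 were above every KO liver, and WT replicates 1, 3 and 4 were in the KO range. The log2 fold change amounted to -1.32 (SE 0.49, adjusted p = 0.131, edgeR quasi-likelihood F test, Benjamini-Hochberg), and -1.47 without WT replicate 4 (adjusted p = 0.0428, same test).

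Cyp2c55, a low member inducible through CAR and PXR, had 0.717, 0.770, 0.845 and 1.37 CPM in KO, against 0.408, 1.60 and 8.35 CPM in WT, with WT replicate 4 the lowest of the 10. The fitted log2 change was -1.90 (SE 0.76, adjusted p = 0.145, edgeR quasi-likelihood F test, Benjamini-Hochberg). It became -2.13 without WT replicate 4 (adjusted p = 0.0331, same test). The 3 members below, like Cyp2c55, were chosen after their values were seen.

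Cyp2c37 and Cyp2c38 were on the higher side in KO. Cyp2c37, an arachidonic acid hydroxylase also listed here as inducible, had 155, 135, 156 and 201 CPM in KO, against 56.4, 106 and 158 CPM in WT. Its log2 fold change was 0.63 (SE 0.27, adjusted p = 0.17, edgeR quasi-likelihood F test, Benjamini-Hochberg). Cyp2c38, listed here as female-biased, had 16.1, 21.96, 16.5 and 19.3 CPM in KO, against 3.90, 13.1 and 15.9 CPM in WT, without overlap but with the lowest KO liver close to the highest WT liver. KO over WT, this gave a log2 fold change of 0.64 (SE 0.31, adjusted p = 0.206, edgeR quasi-likelihood F test, Benjamini-Hochberg). Cyp2c23, known as an arachidonate epoxygenase, had 165, 232, 171 and 166 CPM in KO, against 107, 131 and 191 CPM in WT, and the groups overlapped (log2 fold change 0.43, SE 0.18, adjusted p = 0.16, edgeR quasi-likelihood F test, Benjamini-Hochberg). The other 7 members, Cyp2c39, Cyp2c40, Cyp2c50, Cyp2c54, Cyp2c67, Cyp2c68 and Cyp2c69, had log2 fold changes between -0.50 for Cyp2c40 and 0.71 for Cyp2c39, and overlapping groups. Cyp2c40, Cyp2c67, Cyp2c68 and Cyp2c69 share 43.3 to 60.3% of their 50-base words with other genes, so their separate counts are uncertain. This limit holds to a lesser degree for Cyp2c37, which shares 30.08% of such words, chiefly with Cyp2c50. Of all described members, 13 share at least 20%.

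Subfamily 2D, on chromosome 15, summed higher in every KO liver than in every WT liver, with the pseudogene Cyp2d13 included in the sum. Cyp2d9 and Cyp2d13 had the largest log2 fold changes of its 6 described members. Cyp2d9, a testosterone hydroxylase that is male-biased in mice, had 944, 933, 1139 and 997 CPM in KO, against 518, 767 and 809.6 CPM in WT, without overlap. Between genotypes this gave a log2 fold change of 0.49 (SE 0.17, adjusted p = 0.106, edgeR quasi-likelihood F test, Benjamini-Hochberg) and 0.51 without WT replicate 4 (adjusted p = 0.0584, same test). Cyp2d13 (chr15:82636750-82642045), which RefSeq lists as a transcribed pseudogene, had 336, 386, 429 and 337 CPM in KO, against 16.2, 29.1 and 474 CPM in WT. The highest value of all 10 livers was in WT replicate 4, and the other 5 WT livers had 16.2 to 34.4 CPM, far below every KO liver. The change on the log2 scale was 1.89 with all libraries (SE 0.91, adjusted p = 0.216, edgeR quasi-likelihood F test, Benjamini-Hochberg). It was 3.85 without WT replicate 4 (adjusted p = 3.60e-06, same test). Cyp2d13, chosen after its values were seen, was thus high in the KO livers and in WT replicate 4, and low in the other 5 WT livers.

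The coding 2D neighbours had no such split. Cyp2d10 averaged 559.7 ± 27.6 CPM in KO and 558 ± 84.2 CPM in WT. Cyp2d22 averaged 189.9 ± 18.6 CPM in KO and 185 ± 28.2 CPM in WT. Cyp2d26 and Cyp2d40 had log2 fold changes of 0.28 and -0.32, and overlapping groups. None of these passed the test in any direction with or without WT replicate 4. Cyp2d9 and Cyp2d10 share 21.78% and 35.78% of their 50-base words with other genes, which limits their separate counts.

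Rows of annotated 2D pseudogenes beside them, which the symbol rule does not admit and which were chosen after their values were seen, had higher means in KO, as Cyp2d13 did, and did not pass edgeR's test over all 10 livers. Over the same livers, Cyp2d37-ps, Cyp2d38-ps and Cyp2d41-ps passed with limma-voom (adjusted p = 0.0348, 0.0246 and 0.0363) and with DESeq2 (adjusted p = 0.0012, 0.00104 and 0.00707). Cyp2d37-ps (chr15:82688750-82690058) had 177, 182, 195 and 136 CPM in KO, against 8.33, 22.6 and 96.97 CPM in WT, the highest being WT replicate 4. Its log2 fold change was 2.30 (SE 0.58, adjusted p = 0.0627, edgeR quasi-likelihood F test, Benjamini-Hochberg), and 2.95 without WT replicate 4 (adjusted p = 0.00182, same test). Cyp2d38-ps averaged 21.7 ± 4.97 CPM in KO and 4.34 ± 4.11 CPM in WT, with a log2 fold change of 2.31 (SE 0.54, adjusted p = 0.0555, edgeR quasi-likelihood F test, Benjamini-Hochberg). For Cyp2d37-ps, Cyp2d38-ps and Cyp2d41-ps, every KO liver was above every WT liver. Cyp2d41-ps averaged 5.82 ± 0.858 CPM in KO and 1.76 ± 1.31 CPM in WT. Cyp2d36-ps averaged 3.56 ± 1.43 CPM in KO and 1.30 ± 1.11 CPM in WT, and WT replicate 4 lay in its KO range. These 4 rows had the highest WT value in WT replicate 4, and without it the log2 fold changes of Cyp2d38-ps, Cyp2d41-ps and Cyp2d36-ps were 2.95, 2.16 and 1.91 (adjusted p = 0.000861, 0.00278 and 0.018, same test). Reads of genes that overlap them on either strand cannot be told apart, since the strand setting of the counting is not given in the sources used here.

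**Figure D4:**
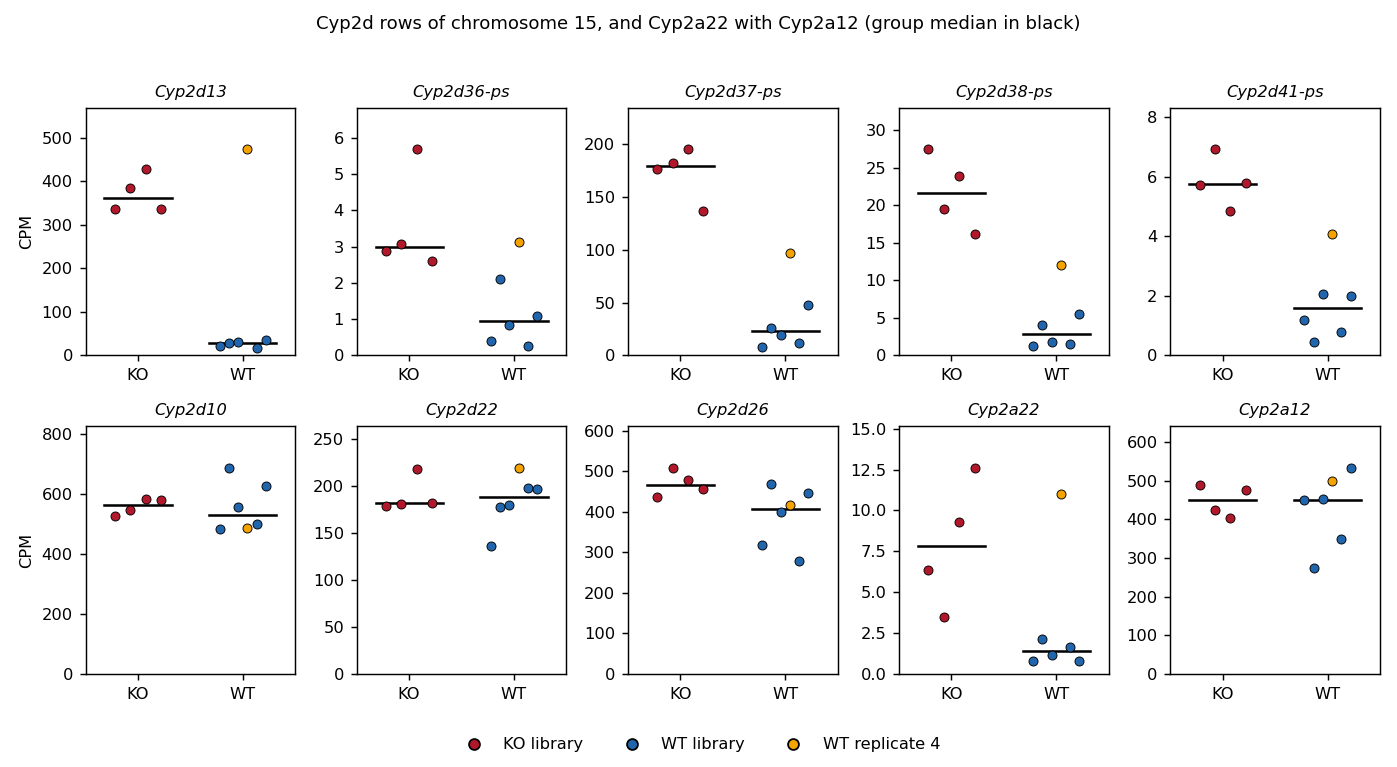
CPM per library (y axis) of Cyp2d13, 4 Cyp2d pseudogene rows and 3 coding Cyp2d genes of chromosome 15, and of Cyp2a22 with Cyp2a12; KO livers are red, WT livers blue, WT replicate 4 orange, and black lines are group medians. For Cyp2d13 and Cyp2a22, WT replicate 4 is with the KO livers at 474 and 11.0 CPM, and for Cyp2d10, Cyp2d22, Cyp2d26 and Cyp2a12 the groups overlap.

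Cyp2j5 and Cyp2u1 lay higher in every KO liver. Cyp2j5, an arachidonate epoxygenase that is male-biased in mice, had 172, 170.2, 162 and 206 CPM in KO, against 103, 123 and 150.3 CPM in WT, with WT replicate 4 the highest WT liver. The log2 fold change amounted to 0.51 (SE 0.15, adjusted p = 0.0817, edgeR quasi-likelihood F test, Benjamini-Hochberg). It was 0.58 without WT replicate 4 (adjusted p = 0.0179, same test), a value past the threshold. Cyp2j6 and Cyp2j9 had log2 fold changes of -0.29 and -0.13, with overlapping groups. Cyp2u1, known from the human enzyme as a fatty acid hydroxylase, had 24.00, 27.8, 24.7 and 27.9 CPM in KO, against 3.78, 12.98 and 22.7 CPM in WT. The highest KO liver had 1.16 times the level of the lowest, and the highest WT liver 5.99 times that of the lowest. The fitted log2 change was 1.01 (SE 0.43, adjusted p = 0.163, edgeR quasi-likelihood F test, Benjamini-Hochberg), and 1.25 without WT replicate 4 (adjusted p = 0.0541, same test).

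The remaining subfamilies have 1 described member each, and for none did it pass the test with or without WT replicate 4. Cyp2e1, the pericentral ethanol oxidase, had 2281, 1477, 1989 and 1843 CPM in KO, against 1073, 1761 and 2709 CPM in WT. The KO livers lay inside the WT range, and the log2 fold change came to 0.07 (SE 0.27, adjusted p = 0.89, edgeR quasi-likelihood F test, Benjamini-Hochberg); it was below 0 without some single libraries. Cyp2f2, a periportal naphthalene oxidase, had 336, 370.3, 382 and 402 CPM in KO, against 144, 280.0 and 408 CPM in WT. WT replicate 6 was above all KO livers and the other 5 WT livers were below them (log2 fold change 0.49, SE 0.24, adjusted p = 0.229, edgeR quasi-likelihood F test, Benjamini-Hochberg).

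Cyp1a2, a pericentral AHR target that oxidizes caffeine, had 275, 174, 235 and 243 CPM in KO, against 215, 282 and 397 CPM in WT, with overlap (log2 fold change -0.36, SE 0.19, adjusted p = 0.262, edgeR quasi-likelihood F test, Benjamini-Hochberg). Cyp1a1, the most inducible AHR target, stayed at or below 0.311 CPM in KO and 0.541 CPM in WT and was not tested. Cyp1b1, an AHR target best known outside hepatocytes, had 1.05, 1.23, 1.23 and 2.67 CPM in KO, against 0.841, 1.03 and 1.45 CPM in WT, with KO replicate 4 the highest of the 10. KO over WT, this gave a log2 fold change of 0.49 (SE 0.34, adjusted p = 0.385, edgeR quasi-likelihood F test, Benjamini-Hochberg). Cyp2r1, a vitamin D hydroxylase, had 5.57, 7.24, 5.38 and 4.79 CPM in KO, against 3.40, 4.49 and 8.43 CPM in WT, with overlap (log2 fold change 0.16, SE 0.28, adjusted p = 0.755, edgeR quasi-likelihood F test, Benjamini-Hochberg).

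The other 13 members did not reach 1 CPM in 4 libraries. Cyp2d11, Cyp2j8 and Cyp2s1 were tested and not called. Cyp1a1, Cyp2a4, Cyp2b9, Cyp2b13, Cyp2d12, Cyp2d34, Cyp2g1, Cyp2t4, Cyp3a16 and Cyp3a44 were too low to test. Their highest level in any library was the 16.3 CPM of Cyp2b9 in WT replicate 2, and Cyp2b9 and Cyp2a4, both female-biased in mice, stood out in that one liver.

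The members can also be grouped by their known control. Of 12 members described as inducible through CAR or PXR, 10 were in the described set, 3 with a log2 fold change above 0 and 7 below, with a median of -1.002, against -0.02 over all genes. They summed to 2719.8, 3624, 3531 and 3307 CPM in KO, against 2387, 4859 and 11288 CPM in WT, and WT replicate 4 was below every KO liver. All 4 members listed as male-biased (Cyp2c23, Cyp2d9, Cyp2j5 and Cyp2u1) were above 0, with a median of 0.50. They summed to 1305, 1364, 1496 and 1397 CPM in KO, against 838, 1048 and 1066 CPM in WT, without overlap. Most of this sum was Cyp2d9, at 1003 of 1390 CPM on average in KO and 712 of 985 CPM in WT. Of 11 female-biased members in the table, 5 were described, 3 above 0 and 2 below, with a median of 0.11. By lobular zone, 3 of 8 pericentral members were above 0 and 5 below, with a median of -0.19. The lists share members and were made with earlier results of these data known. With all libraries, edgeR and limma-voom called 0 members of these lists. DESeq2 called 4 of the inducible members lower (Cyp2a5, Cyp2b10, Cyp2c29 and Cyp2c55) and 2 of the male-biased members higher (Cyp2d9 and Cyp2j5). Of these, Cyp2b10 is also in the female-biased list, and Cyp2a5 and Cyp2c29 are in the pericentral list. DESeq2 called 3.66% of all genes higher and 6.6% lower. At an unadjusted p under 0.05, edgeR had 2 of the 10 inducible members higher (Cyp2c37 and Cyp3a13). It had 5 of them lower (Cyp2a5, Cyp2b10, Cyp2c29, Cyp2c55 and Cyp3a11), and all 4 male-biased members higher. It also had 1 female-biased member lower, and 1 pericentral member higher and 3 lower. The shares of all genes were 11.6% higher and 14.4% lower.

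Of 6 genes for electron donors of P450s, edgeR called 1 lower and 0 higher with all libraries, against 0.767% and 0.563% of all genes. Por, the oxidoreductase that passes electrons to all microsomal P450s, had 86.5, 93.2, 69.2 and 120.5 CPM in KO, against 78.5, 497 and 702 CPM in WT. WT replicate 4, the lowest WT liver, lay in the KO range, and the other 5 WT livers were above every KO liver. Between genotypes this gave a log2 fold change of -2.29 (SE 0.49, adjusted p = 0.0495, edgeR quasi-likelihood F test, Benjamini-Hochberg), and -2.50 without WT replicate 4 (adjusted p = 0.000212, same test). The call was lost with no filter, with upper-quartile scaling, with limma-voom and without any of the other 9 libraries. Of these 6 genes, DESeq2 called Por alone, where it called 6.6% of all genes lower and 3.66% higher. With WT replicate 4 left out, edgeR called 2 lower (Por and Cyb5r3) and 1 higher (Cyb5b), in a fit that called 10.5% of all genes higher and 10.9% lower. The cytochrome b5 gene Cyb5a averaged 899.7 ± 73.2 CPM in KO and 861 ± 113 CPM in WT.

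Of 12 genes of heme synthesis and breakdown, edgeR and limma-voom called 0 with all libraries. DESeq2 called Cpox higher and Alas1 and Hmox2 lower, against 3.66% of all genes higher and 6.6% lower. At an unadjusted p under 0.05, edgeR had 2 higher and 2 lower, against 11.6% and 14.4% of all genes. The fit without WT replicate 4 called 2 higher (Uros and Cpox) and 2 lower (Alas1 and Hmox2), against 10.5% and 10.9% of all genes. Alas1, the rate-limiting enzyme of heme synthesis, had 512, 342, 420.1 and 649 CPM in KO, against 405, 1073 and 1335 CPM in WT. WT replicate 4 was again the lowest WT liver and the one in the KO range; the log2 fold change came to -1.02 (SE 0.32, adjusted p = 0.0875, edgeR quasi-likelihood F test, Benjamini-Hochberg). Hmox2, the constitutive heme oxygenase, had the smallest p of the list. It averaged 17.3 ± 1.63 CPM in KO and 25.8 ± 4.33 CPM in WT (log2 fold change -0.57, SE 0.16, adjusted p = 0.0685, edgeR quasi-likelihood F test, Benjamini-Hochberg). When WT replicate 4 was left out, the log2 fold changes of Alas1 and Hmox2 were -1.18 (adjusted p = 0.00616, same test) and -0.65 (adjusted p = 0.00764).

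Of 18 tested receptors and factors of P450 genes, edgeR called 0 with all libraries. At an unadjusted p under 0.05 it had 6 higher and 4 lower, against 11.6% and 14.4% of all genes. DESeq2 called 3 higher (Ahr, Foxa2 and Ppara) and 3 lower (Nr1i2, Cebpb and Nr0b2) of the 17 to which it gave an adjusted p. Its shares of all genes were 3.66% higher and 6.6% lower. With limma-voom Ahr was called higher and Nr1i2 lower, against 1.69% and 0.636% of all genes. The edgeR test without WT replicate 4 called 6 higher and 4 lower, against 10.5% and 10.9% of all genes. The receptors themselves lay far apart between most livers. Nr1i2, which encodes PXR, had 41.1, 58.6, 59.3 and 69.2 CPM in KO, against 66.1, 161 and 238 CPM in WT; only WT replicate 4 lay below the highest KO liver. The change on the log2 scale was -1.48 (SE 0.33, adjusted p = 0.051, edgeR quasi-likelihood F test, Benjamini-Hochberg). Nr1i3, which encodes CAR, had 216, 230.0, 288 and 202 CPM in KO, against 9.45, 60.6 and 209 CPM in WT. WT replicate 4 was the highest WT liver and inside the KO range, and the next WT liver had 89.1 CPM; the log2 fold change came to 1.66 (SE 0.67, adjusted p = 0.151, edgeR quasi-likelihood F test, Benjamini-Hochberg). Ahr, the aryl hydrocarbon receptor gene, had 70.00, 72.3, 61.4 and 57.7 CPM in KO, against 7.998, 17.97 and 50.6 CPM in WT, without overlap (log2 fold change 1.53, SE 0.38, adjusted p = 0.0604, edgeR quasi-likelihood F test, Benjamini-Hochberg). With all 10 libraries Nr1i2 passed with no filter (adjusted p = 0.048, edgeR), with limma-voom (0.047) and with DESeq2 (0.000655), and Ahr passed with limma-voom (adjusted p = 0.0367) and DESeq2 (0.00393). All 3 receptor genes passed edgeR's test without WT replicate 4, at log2 fold changes of -1.63 for Nr1i2 (adjusted p = 0.00147, same test), 2.32 for Nr1i3 (adjusted p = 0.0208) and 1.95 for Ahr (adjusted p = 0.000595).

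Set side by side, the CAR transcript was higher and the PXR transcript lower in every KO liver than in 5 of the 6 WT livers, while the median of the CAR-inducible Cyp2b10 was 1.09 CPM in KO and 7.50 CPM in WT. The AHR transcript was higher in every KO liver than in every WT liver, while the groups overlapped for its target Cyp1a2. Of 5 tested genes of the AHR battery, edgeR and limma-voom called 0 with all libraries. At an unadjusted p under 0.05, edgeR had 1 higher and 2 lower, against 11.6% and 14.4% of all genes. Tiparp and Nqo1 were called lower by DESeq2 with all libraries and by edgeR without WT replicate 4. These fits called 6.6% and 10.9% of all genes lower. Tiparp, an AHR target that acts back on the receptor, had the smallest p, with 6.40, 8.09, 7.07 and 5.66 CPM in KO, against 5.85, 30.2 and 85.5 CPM in WT (log2 fold change -2.43, SE 0.61, adjusted p = 0.0621, edgeR quasi-likelihood F test, Benjamini-Hochberg). WT replicate 4 lay in the KO range of Tiparp, and without it the log2 fold change was -2.66 (adjusted p = 0.00282, same test).

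Of 11 targets of CAR and PXR outside the families, which include Por and Alas1, edgeR called 2 lower and 0 higher. DESeq2 called 6 lower and 0 higher, and limma-voom 0. The shares of all genes called lower were 0.767% with edgeR, 6.6% with DESeq2 and 0.636% with limma-voom. Abcb1a, a drug efflux pump, had 0.993, 1.16, 0.768 and 0.995 CPM in KO, against 0.749, 11.1 and 17.01 CPM in WT, where the lowest was WT replicate 4 and the next 8.39 CPM. Its log2 fold change was -3.43 (SE 0.66, adjusted p = 0.044, edgeR quasi-likelihood F test, Benjamini-Hochberg), and this call was lost with no filter, with limma-voom and without any single library other than WT replicate 4. Gstm3, a glutathione transferase, had 14.5, 24.4, 19.1 and 19.03 CPM in KO, against 11.9, 238 and 1083 CPM in WT, and did not pass (log2 fold change -4.34, SE 1.08, adjusted p = 0.0618, edgeR quasi-likelihood F test, Benjamini-Hochberg). Without WT replicate 4, the lowest WT liver of both genes, Abcb1a was at -3.68 (adjusted p = 3.59e-05, same test) and Gstm3 at -4.59 (adjusted p = 0.00537), and 7 of the 11 were called lower and 0 higher, against 10.9% and 10.5% of all genes.

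Among 8 genes of growth hormone signalling and sex bias, edgeR called 1, Stat5a, higher with all libraries, against 0.563% of all genes. DESeq2 and limma-voom called Stat5a and Onecut1 higher, and DESeq2 also Cux2 lower. They called 3.66% and 1.69% of all genes higher, and DESeq2 called 6.6% lower. When WT replicate 4 was omitted, edgeR called 5 higher (Ghr, Stat5a, Bcl6, Onecut1 and Cish) and 1 lower (Cux2), against 10.5% and 10.9% of all genes. Stat5a, a transducer of the growth hormone signal, had 11.3, 13.3, 10.8 and 11.01 CPM in KO, against 5.61, 6.77 and 8.30 CPM in WT, without overlap. The log2 fold change amounted to 0.78 (SE 0.17, adjusted p = 0.0486, edgeR quasi-likelihood F test, Benjamini-Hochberg), a call that held without WT replicate 4 (0.84, adjusted p = 0.00531, same test) and was lost with no filter and without any other single library. Of 6 clock factors that act on P450 genes, edgeR and limma-voom called 0 with all libraries. At an unadjusted p under 0.05, edgeR had 1 higher and 2 lower, against 11.6% and 14.4% of all genes. DESeq2 called Hlf higher and Bhlhe40 lower, against 3.66% and 6.6% of all genes. Bhlhe40, a clock repressor, had the smallest p, with 25.3, 45.3, 60.9 and 29.5 CPM in KO, against 41.7, 109 and 158 CPM in WT (log2 fold change -1.45, SE 0.35, adjusted p = 0.0576, edgeR quasi-likelihood F test, Benjamini-Hochberg). Without WT replicate 4, its lowest WT liver, Bhlhe40 was at -1.62 (adjusted p = 0.00206, same test), and Hlf, an activator that binds the D-box, was called in the other direction at 1.48 (adjusted p = 0.000631).

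**Figure D5:**
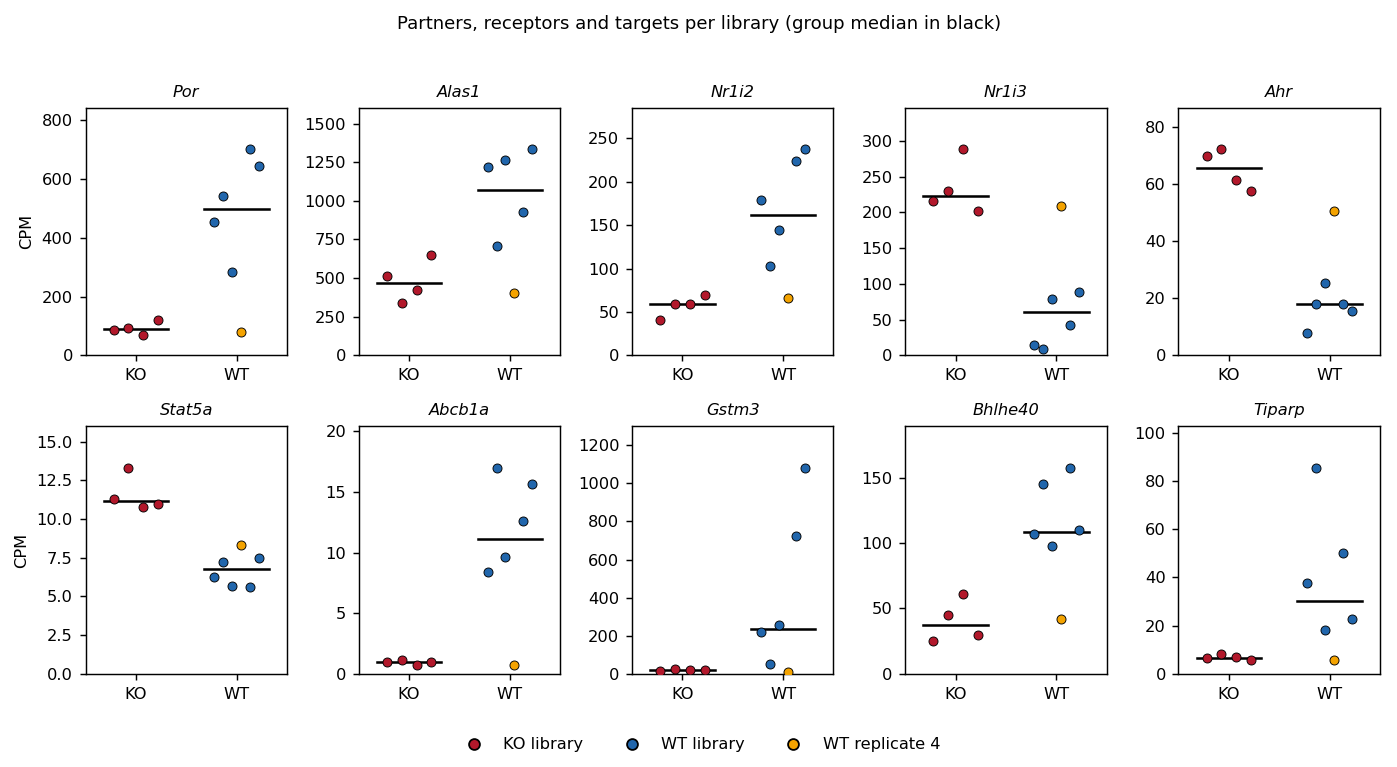
CPM per library (y axis) of the P450 electron donor Por, the heme enzyme gene Alas1, the receptor genes Nr1i2, Nr1i3 and Ahr, and 5 further factors and targets; KO livers are red, WT livers blue, WT replicate 4 orange, and black lines are group medians. Por has at most 120.5 CPM in KO livers and at least 285 CPM in the WT livers other than replicate 4.

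Markers of other cells were low beside those of hepatocytes, the cells that make P450s. The 6 hepatocyte markers (Alb, Apoa1, Apob, Ttr, Serpina1a and Trf) summed to 53372 to 64699 CPM in KO and 42088 to 94572 CPM in WT, and edgeR (with and without WT replicate 4), DESeq2 and limma-voom called 0. At an unadjusted p under 0.05, edgeR had 1 higher and 1 lower, against 11.6% and 14.4% of all genes. Apoa1 had the smallest p (log2 fold change 0.53, adjusted p = 0.131, edgeR quasi-likelihood F test, Benjamini-Hochberg). All 6 Kupffer cell or macrophage markers and all 5 neutrophil markers had log2 fold changes below 0, and edgeR and limma-voom called 0 of them with all libraries, with 3 of each list lower at an unadjusted p under 0.05 in edgeR. DESeq2 called Clec4f, S100a8 and Cxcr2 lower. In edgeR's fit without WT replicate 4, 2 of each list were called lower (Clec4f and Marco, S100a8 and Cxcr2). Of all genes, 14.4% were lower at an unadjusted p under 0.05 in edgeR, 6.6% with DESeq2 and 10.9% without WT replicate 4. The macrophage markers summed to 24.9 to 49.3 CPM in KO and 32.6 to 233 CPM in WT, with Cd68 (log2 fold change -1.88) of smallest p. The neutrophil markers summed to 6.15 to 17.2 CPM in KO and 10.1 to 173 CPM in WT, with Cxcr2 (log2 fold change -1.90) of smallest p. Sinusoidal endothelial markers summed to 99.5 to 158 CPM in KO and 80.7 to 159 CPM in WT, and edgeR called 1 of 6, Fcgr2b, higher (log2 fold change 1.03, adjusted p = 0.044, edgeR quasi-likelihood F test, Benjamini-Hochberg), a call lost without any 1 KO library or WT replicates 1, 3, 5 or 6. DESeq2, and edgeR without WT replicate 4, called Clec4g and Fcgr2b higher and Lyve1 lower. Shares of all genes called higher were 0.563% in edgeR with all libraries, 3.66% with DESeq2 and 10.5% without WT replicate 4. The markers summed to 42.1 to 65.3 CPM in KO and 31.9 to 283 CPM in WT for cholangiocytes, and to 195 to 276 CPM in KO and 175 to 342 CPM in WT for stellate cells. Those of lymphocytes summed to 2.70 to 3.86 CPM in KO and 1.68 to 3.86 CPM in WT. Only 1 of the 5 lymphocyte markers, Ighm, had enough counts to be tested. Of the tested markers of these 3 lists, 0 were called by edgeR, DESeq2 or limma-voom, and 0 had an unadjusted p under 0.05 in edgeR. The smallest p were those of Spp1, Des and Ighm, with log2 fold changes of -1.19, 0.49 and -0.18. The lymphocyte markers Cd8a, Cd79a and Ms4a1 were at 0 in some livers and no marker was at 0 in all, and the part of these cells in the P450 values was not tested.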

How the data were processed

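Poly(A) RNA of 10 mouse livers was sequenced on an Illumina instrument, per the labels' protocols. The authors deposited whole-number read counts per gene symbol, 1 column per library (0 columns were left out). STAR, HTSeq and DESeq2 and the build mm10 are named in the submitters' processing notes, without versions; the annotation and strand setting are unknown (not given in the sources used here). Groups and replicate numbers came from the sample titles. The labels do not show that a replicate number marks a shared litter or day.

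All 23056 genes entered edgeR 4.0.16 (R 4.3.3): TMM scaling, filterByExpr by group (13688 genes kept), robust quasi-likelihood fit without covariates, and Benjamini-Hochberg adjustment over all genes tested, called under 0.05. SE is the size of the log2 fold change over the square root of F. DESeq2 1.42.0, limma-voom (limma 3.58.1), RLE and upper-quartile scaling, no filter, a CPM filter, a replicate block and the omission of each library in turn were alternatives. The fits were tested on simulated data. Coordinates and promoters are RefSeq's (GRCm38.p6), where all 48 members were found; exon lengths and shared 50-base words are from GENCODE M21 (47 members).

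Per subfamily, full values are given for the member with the highest mean and that with the smallest p, and per list of other genes for those called, or else that of smallest p. Genes outside this rule were chosen after their values were seen: Cyp2d13, Cyp2a22, Cyp2c23, Cyp2c37, Cyp2c38, Cyp2c55, Cyp3a13, Cyp3a25, the pseudogenes, Nr1i3, Ahr, Alas1 and Gstm3. Others appear by mean or range, or by name as called in an alternative. Members and lists were chosen with earlier results of these data known. Cyp2c44 and Tf of the lists were read as Cyp2c23 and Trf, their RefSeq symbols.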

Additional observations from a re-analysis of the deposited data

Results flagged for a closer look

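In 9 of 88 groups examined, 1 library lay far from the others of its group by Dixon's ratio of gap to range on the log2(CPM + 0.5) scale; chance flags about 1 in 20. Among members, Cyp2d13 was at 474 CPM in WT replicate 4, against 34.4 CPM in the next WT liver, and Cyp2a22 was at 11.0 CPM in the same liver, against 2.12 CPM in the next. Cyp2c23 was at 232 CPM in KO replicate 2, against 171 CPM in the next KO liver. Cyp1b1 was at 2.67 CPM in KO replicate 4, against 1.23 CPM in the next KO liver.

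Of the other genes, Ifrd1 was at 13.0 CPM in KO replicate 1, against 20.8 CPM in the next KO liver. Abcb1a and Bhlhe40 were lowest in WT replicate 4, at 0.749 and 41.7 CPM, against 8.39 and 97.5 CPM in the next WT livers. Spp1, a cholangiocyte marker, was at 247 CPM in WT replicate 1, against 58.1 CPM in the next WT liver. Cd68, a macrophage marker, was at 54.8 CPM in WT replicate 2, against 10.7 CPM in the next WT liver; the same liver held the Cyp2b9 and Cyp2a4 counts and the highest sums of macrophage and neutrophil markers, and their part in these values was not tested.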

How the results depend on the processing

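The count of members called was 0 in both directions with RLE or upper-quartile scaling, with no filter, with a CPM filter, with limma-voom and with the replicate block. DESeq2 called 2 members higher and 4 lower in KO. Leaving out each library in turn gave 0 to 3 members higher and 0 to 5 lower. All calls came without WT replicate 4 (3 higher and 5 lower), except for 1 lower, Cyp2b10, without WT replicate 2. Over all genes, against 77 higher and 105 lower, DESeq2 called 579 higher and 1045 lower, limma-voom 231 higher and the replicate block 0 higher and 1 lower. Leaving out each library gave 0 to 1420 genes higher and 0 to 1473 lower, the highest counts being those without WT replicate 4. The cause was not tested.

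Replicate numbers 1 to 4 are shared by KO and WT. WT5 and WT6 have no KO library of their number, so the replicate block gave each its own term and left both out of its fold changes. Same-numbered libraries deviated together weakly or not at all: their correlations across genes were 0.183, 0.0741, -0.0271 and -0.00996 for numbers 1 to 4. Of the 4 KO libraries, 2 correlated best with their own number. The labels give no ground for the replicate block, and whether libraries of the same number share a litter or day was not tested. The block ended the calls of Ifrd1, Por, Abcb1a, Stat5a and Fcgr2b, in a fit whose fold changes rest on numbers 1 to 4.

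Of 356 values recomputed for 21 named members, 335 kept their direction and side of the threshold, 15 passed it where the main value had not, and 6 changed sign. A call could not be lost, since no member was called in the main fit. The log2 fold change of Cyp2a12 ranged between -0.032 (without WT replicate 2) and 0.14 (without WT replicate 6) when 1 library was left out. That of Cyp2e1 was -0.096 with the replicate block, and ranged between -0.041 (without WT replicate 5) and 0.22 (without WT replicate 2) when 1 library was left out, being below 0 also without KO replicate 1 (-0.027) and WT replicate 4 (-0.015). Cyp3a25 was at 0.21 with the replicate block, to whose fold changes WT replicates 5 and 6, at 1502 and 1859 CPM, add nothing. Beyond this, the cause of the sign changes was not tested. Members near 1 CPM, such as Cyp2b10, Cyp1b1 and Cyp2c55 in KO, rest on few counts; at a minimum of 0.5 CPM, 38 members in place of 35 would have been described.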
